A study of Saccharomyces cerevisiae with 36 samples.

Results

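The 66 genes described here carry names of mitochondrial ribosomal proteins of Saccharomyces cerevisiae. They were chosen by name: every probe whose gene symbol is MRPL, MRPS, RSM or MRP followed by a number was taken, which gave 66 probes, 1 for each gene, of the 6388 yeast probes on the array. By the family names in the RefSeq gene table, 37 of the genes belong to the large subunit and 27 to the small subunit, and 2 (MRP8 and RSM22) have no subunit name there. The same names mark 40 as homologues of bacterial ribosomal proteins and 24 as specific to mitochondria.

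The mitochondrial ribosome translates the few messages of the mitochondrial genome, nearly all of which encode membrane subunits of the respiratory chain and the ATP synthase. Its RNAs are made in the mitochondrion, whereas nearly all of its proteins are encoded in the nucleus, made by cytoplasmic ribosomes and imported, so that their genes are transcribed apart from those of the cytoplasmic ribosome. In yeast many of these messages are bound by the RNA-binding protein Puf3, and respiratory genes in general are induced by the Hap2/3/4/5 complex when glucose runs out. The ribosome is held at the inner membrane, where newly made chains are inserted.

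Transcript levels came from 36 dual-channel arrays, 2 for every one of 18 groups, and each array compared RNA of a strain with a common reference RNA from a single wild-type culture. The labels name BY4742 as the strain throughout. The 8 starved groups were hat1-del-starved, hat2-del-starved, hif1-del-starved, hat1-del+hif1-del-starved, hat2-del+hif1-del-starved, hhf2-mut-K5Q-K12Q-starved, hhf2-mut-K5R-K12R-starved and wt-starved. Hat1, Hat2 and Hif1 form the NuB4 complex, which acetylates new histone H4 at lysines 5 and 12, and the hhf2 mutants carry glutamine or arginine at those lysines. The strain list of the study gives all 8 as MATa strains with a RITE cassette, in which Cre recombinase can exchange an HA tag on histone H3 for a T7 tag, with the other H3-H4 gene pair deleted (hhf1-hht1Δ), Cre-EBD78 under the TDH3 promoter and bar1 deleted. They were starved in rich medium, and the study describes their harvest as in its turnover experiments. In those, estradiol was added to induce the tag exchange, and a figure legend gives 3 days (t = 3d) for these strains. The 3 growing RITE groups were wt-rite-H3-HA, wt-rite-H3-T7 and wt-rite, all MATa with the same Cre construct and with hht1-hhf1 and bar1 deleted, expressing H3 with an HA tag, with a T7 tag or with no tag. The 7 growing BY4742 groups carried every combination of hat1-del, hat2-del and hif1-del, without a RITE cassette, and no wild type stood among them other than the reference RNA. Both sets of growing strains were taken from exponential cultures (early mid-log) in a synthetic complete glucose medium. The 2 arrays of a group came from independent cultures and had opposite dye orientation.

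Values are log2 ratios of strain over reference, relative to the other probes on the same array. In bulk RNA, fewer cells and less RNA per cell cannot be told apart. All 66 probes were above background in the strain channel of all 36 arrays, other than RSM28, which was above it on 35. Between the 2 arrays of a group, ratios over all probes correlated at 0.961 to 0.983 in the starved groups, 0.916 to 0.963 in the growing RITE groups and 0.679 to 0.818 in the growing BY4742 groups. The probes of the deleted genes followed the labels: on the arrays of strains without the gene HAT1 lay between -3.33 and -2.23, HAT2 between -2.72 and -1.87 and HIF1 between -2.66 and -1.33. On the arrays of strains with the gene they lay at -1.21 to 0.21, -0.36 to 0.13 and -0.35 to 0.21 in the same order. A list of 7 genes of MATa cells averaged 3.47 to 4.30 on the starved arrays and 3.13 to 3.79 on the growing RITE arrays, against -0.06 to 0.03 on the growing BY4742 arrays, and it includes BAR1, which the strain list gives as deleted and whose probe lay at 2.02 to 3.31 on the starved and growing RITE arrays. The starved arrays were also checked with 9 genes induced by starvation and stress (HSP12, HSP26, SPG4 and others), which averaged 3.10 to 3.76 there, 0.38 to 1.73 on the growing RITE arrays and -0.16 to 0.46 on the growing BY4742 arrays. The spots of ATG33 gave signal on the 14 growing BY4742 arrays and on 8 starved arrays (hat1-del+hif1-del, hat2-del+hif1-del and both hhf2 mutants), and none on the other 8 starved and the 6 growing RITE arrays, so that the arrays fall into 2 sets.

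As a group the mitochondrial ribosomal protein genes had medians near 0 in all 3 sets of strains, and they spread most widely in starved cells. Their median per array lay between -0.05 and 0.22 on the 16 starved arrays, between -0.20 and -0.07 on the 6 growing RITE arrays and between 0.07 and 0.18 on the 14 growing BY4742 arrays. The growing RITE and growing BY4742 arrays did not overlap in this median. The SD among the 66 genes was 0.48 to 0.59 on starved arrays, 0.18 to 0.26 on growing RITE arrays and 0.13 to 0.17 on growing BY4742 arrays, and over all probes it was 1.07 to 1.25, 0.34 to 0.56 and 0.16 to 0.20 in the same 3 sets of arrays. The genes of the cytoplasmic ribosome took another course, with medians between -1.40 and -0.65 on the starved arrays, between -0.24 and -0.09 on the growing RITE arrays and between -0.01 and 0.06 on the growing BY4742 arrays.

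**Figure D1:**
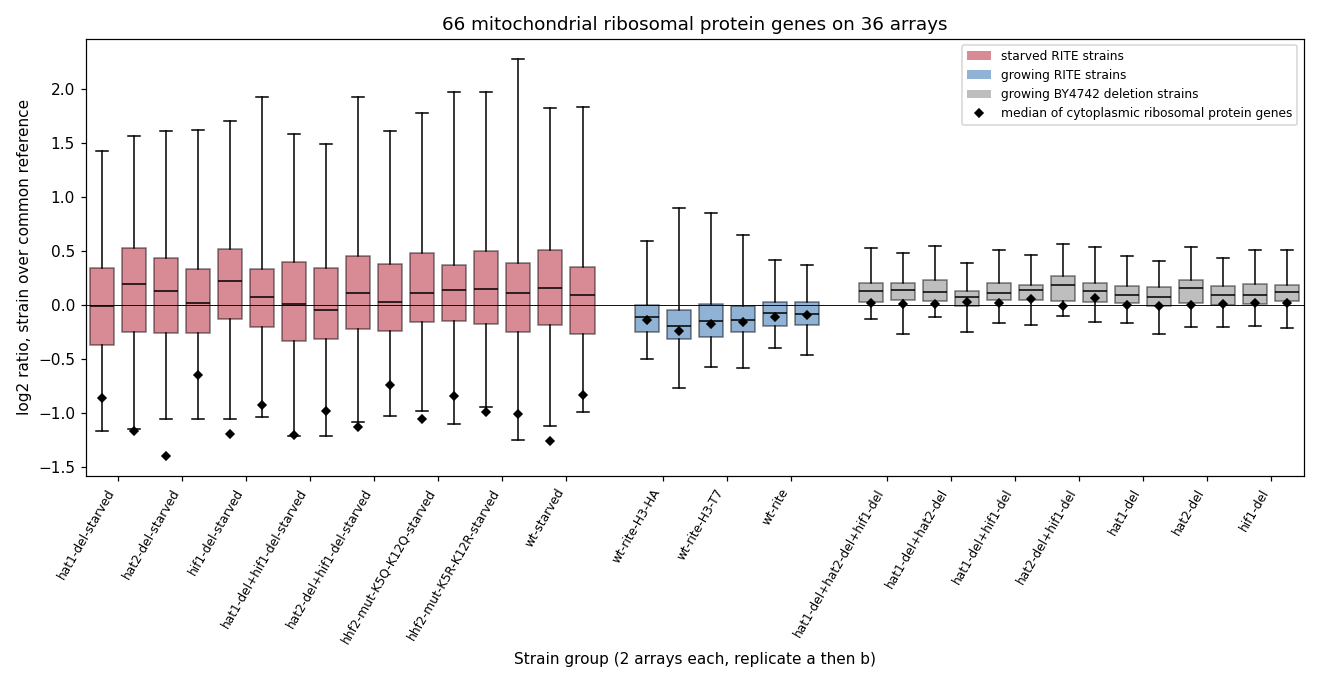
Log2 ratio of strain over common reference for the 66 mitochondrial ribosomal protein genes on each of 36 arrays (box, quartiles and median; whiskers, lowest and highest gene), with the median of the cytoplasmic ribosomal protein genes as a diamond. Boxes are wide on the starved arrays and sit around 0, where the diamonds lie between -1.40 and -0.65, and the growing RITE medians (-0.20 to -0.07) lie below the growing BY4742 medians (0.07 to 0.18).

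The first comparison asked how the genes differed between starved and growing cells, with wt-starved (2 arrays) set against the 3 growing RITE strains (6 arrays). In wt-starved 36 of the 66 genes were higher and 13 were lower at an adjusted p under 0.05 (limma with Benjamini-Hochberg adjustment over all probes), and 17 did not pass. The 49 called genes are 74.2% of the 66. Over all probes 78.2% were called, 40.0% higher and 38.2% lower, so that the share of the genes that changed was near that of the array, with more of them higher. The median difference of the 66 genes was 0.16 on the log2 scale and ran from -0.89 to 1.40, against a median of 0.01 over all probes. Of the 126 cytoplasmic ribosomal protein genes, 109 were lower and 2 higher in wt-starved, with a median difference of -0.89. Both subunits of the mitochondrial ribosome held genes of either direction: 20 of 37 large subunit genes were higher and 8 lower (median 0.15), and 14 of 27 small subunit genes were higher and 5 lower (median 0.13). The homologues of bacterial proteins had 22 of 40 higher and 5 lower (median 0.20), and the genes specific to mitochondria had 12 of 24 higher and 8 lower (median 0.08).

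The largest increase in the large subunit was that of MRPL35 (YDR322W), a mitochondria-specific protein of family mL38. MRPL35 lay at 1.34 and 1.33 on the 2 wt-starved arrays, against a lowest of -0.13, a median of -0.07 and a highest of 0.00 on the 6 growing RITE arrays. The groups did not overlap, and the difference was 1.40 ± 0.10 (SE), a fold of 2.64 (limma adjusted p = 5.2e-08). In this comparison too, SE and p-values measure the spread between arrays of the same strain, not that between strains. MRPL28 (YDR462W), of the mitochondria-specific family mL40, lay at 1.19 and 1.15 in wt-starved, against -0.16, -0.03 and 0.10 as the lowest, median and highest of the growing RITE arrays, a difference of 1.20 ± 0.11 (SE). On the other 14 starved arrays MRPL35 was between 0.99 and 1.44 and MRPL28 between 0.92 and 1.50, so that on all 16 starved arrays both lay above every growing array.

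Homologues of bacterial large subunit proteins came next. MRPL24 (YMR193W) (family bL28m) lay at 0.76 and 0.75 in wt-starved, against -0.16 to 0.05 on the growing RITE arrays, a difference of 0.84 ± 0.08 (SE). MRPL38 (YKL170W), of family uL14m, lay at 0.49 and 0.44 in wt-starved, against -0.44 to -0.16 in the growing RITE strains (difference 0.78 ± 0.07). MRPL16 (YBL038W), the homologue of the bacterial protein L16, lay at 1.02 and 1.03 in wt-starved, and it was the one of these genes that was already above 0 on every growing RITE array, at 0.24 to 0.41 (difference 0.70 ± 0.10).

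The 4 small subunit genes with the largest increases were all homologues of bacterial proteins. RSM7 (YJR113C) (family uS7m) lay at 0.72 and 0.30 on the 2 wt-starved arrays, against -0.50, -0.25 and -0.07 as the lowest, median and highest of the growing RITE arrays. Its wt-starved arrays were far apart from each other, yet both lay above every growing array, with a difference of 0.79 ± 0.08 (SE) and a fold of 1.73 (limma adjusted p = 2.1e-06). MRP2 (YPR166C) (uS14m) was higher by 0.74 ± 0.08, MRPS28 (YDR337W) (uS15m) by 0.71 ± 0.07 and MRPS12 (YNR036C) (uS12m), whose bacterial homologue lies at the decoding site, by 0.69 ± 0.10, and in none of them did the arrays of the groups overlap.

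MRP8 (YKL142W) stood apart from the rest. The gene was named for a resemblance to ribosomal proteins, but its product is not known as part of the mitochondrial ribosome. MRP8 lay at 1.82 and 1.83 in wt-starved, against 0.29, 0.62 and 0.90 as the lowest, median and highest of the growing RITE arrays, a difference of 1.21 ± 0.12 (SE). It was the highest of the 66 genes in every starved group, with strain means between 1.49 in hat1-del-starved and 2.13 in hhf2-mut-K5R-K12R-starved.

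Among the genes that fell, MRPL3 (YMR024W), a large subunit protein of family mL44 with an RNase III-like fold, changed most. It lay at -1.12 and -0.996 in wt-starved, against -0.30, -0.16 and -0.05 as the lowest, median and highest of the growing RITE arrays. The difference was -0.89 ± 0.06 (SE), a fold of 0.538 (limma adjusted p = 2.5e-08), and the 14 other starved arrays lay between -1.21 and -0.68. MRPL32 (YCR003W), whose precursor is known in yeast as a substrate of the inner membrane m-AAA protease that controls ribosome assembly, lay at -0.51 and -0.73 in wt-starved, against -0.21 to 0.06 in the growing RITE strains (difference -0.57 ± 0.11). MRPL11 (YDL202W), the homologue of the bacterial stalk-base protein L10, lay at -0.64 and -0.55 in wt-starved, against -0.13 to 0.04 (difference -0.55 ± 0.07). MRP13 (YGR084C), a mitochondria-specific small subunit protein, lay at -0.42 and -0.35 in wt-starved but above 0 on all 6 growing RITE arrays, at 0.09 to 0.22 (difference -0.52 ± 0.05).

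The other genes among the 10 lowest were MRPL4 (YLR439W), MRPL44 (YMR225C), MRPL7 (YDR237W), RSM26 (YJR101W), MRPS9 (YBR146W) and MRP1 (YDR347W), with differences between -0.42 and -0.28. MRP1 and RSM26 resemble superoxide dismutases and are specific to mitochondria. Of these 6 genes RSM26 was the one whose arrays overlapped between the groups, with -0.71 and -0.91 in wt-starved against -0.77 to -0.16 in the growing RITE strains. The calls for MRP1 and RSM26 were lost with print-tip loess, that for MRP1 also with the deposited ratios and against wt-rite-H3-HA alone, those for RSM26 and MRPS9 without the replicate block, those for MRP1 and MRPS9 without wt-starved replicate a and that for MRPL4 without wt-starved replicate b. Over all 66 genes the arrays of the groups did not overlap for 37 genes that lay higher in wt-starved and 12 that lay lower. Among all probes 38.8% lay apart as higher and 36.9% as lower.

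**Figure D2:**
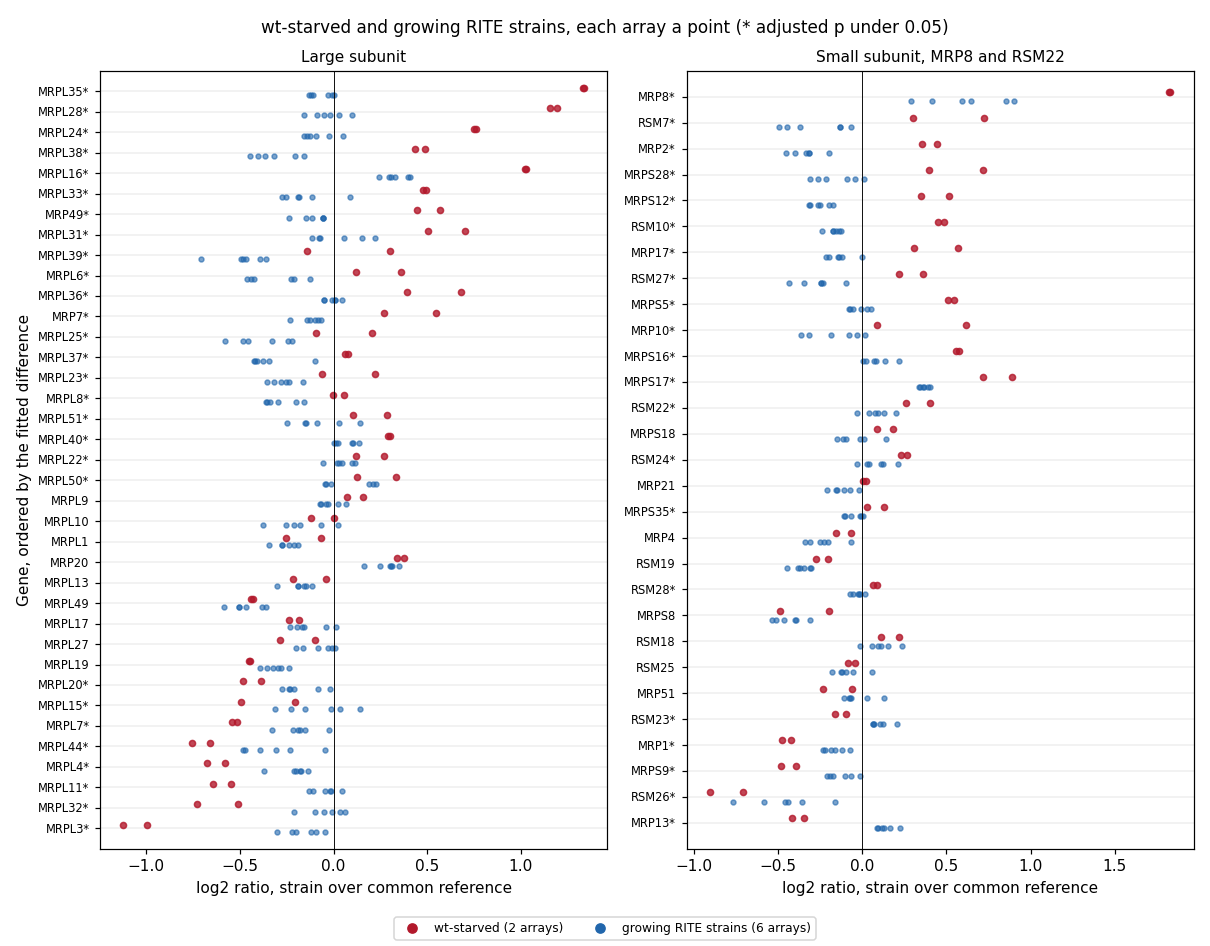
Log2 ratio of strain over common reference for each of the 66 genes, ordered by the fitted difference, with the 2 wt-starved arrays in red above the 6 growing RITE arrays in blue and an asterisk at an adjusted p under 0.05. Large subunit genes (left) and small subunit genes with MRP8 and RSM22 (right) both run from genes far above the growing strains, such as MRPL35 at 1.34 and 1.33, to genes far below them, such as MRPL3 at -1.12 and -0.996.

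Starvation in this comparison cannot be told apart from rich against synthetic medium or from the estradiol of the turnover experiments. Nor can it be told apart from the tag cassette, which differed, or from auxotrophies and the markers of the H3-H4 deletion, which differed between these strains. The isolation protocol cannot be told apart from it either. The labels give the starved strains a different RNA isolation protocol from that of all growing strains and the reference. The wt-starved and growing RITE arrays belong to the same array set.

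Genes that work with the mitochondrial ribosome also went both ways in wt-starved, where 40.0% of all probes were called higher and 38.2% lower. Of 11 further ribosomal protein genes that carry other names, 4 were higher and 2 lower, with a median difference of 0.09. RTC6, of the bacterial L36 family, rose most, at 0.99 and 0.66 in wt-starved against -0.47 to -0.36 on the growing RITE arrays (difference 1.23 ± 0.08, SE). EHD3 (0.39) and YML6 (0.27) were higher, and MNP1 (-0.23) and NAM9 (-0.19) lower, where the call for MNP1 was lost and NAM9 turned to 0.19 with print-tip loess. Of 8 translation factor genes 3 were higher and 4 lower (median -0.11). AIM23, the mitochondrial initiation factor 3, lay at 1.31 and 1.15 in wt-starved against -0.34 to 0.10 in the growing RITE strains (1.35 ± 0.07), and MEF2, which acts in ribosome recycling, at 1.52 and 1.55 against 0.10 to 0.31 (1.35 ± 0.13). MEF1, the elongation factor G, fell by 0.47 on the log2 scale, RRF1, the ribosome recycling factor, by 0.40 and IFM1, the initiation factor 2, by 0.26. MRF1, a release factor, was higher by 0.43.

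Of 16 genes for mitochondrial aminoacyl-tRNA synthetases and the amidotransferase, 3 were higher and 6 lower in wt-starved (median -0.03). MST1, the threonyl-tRNA synthetase, lay at -1.02 and -0.91 in wt-starved, against -0.02 to 0.34 on the growing RITE arrays (difference -1.10 ± 0.07, SE). MSW1, the tryptophanyl-tRNA synthetase, lay at -0.88 and -0.91 against -0.02 to 0.25 (-0.99 ± 0.06). SLM5 was lower too (-0.42), and HER2 (0.29), MSD1 (0.28) and ISM1 (0.19) were higher. Of 4 genes for ribosome receptors of the inner membrane 2 were higher and 2 lower. OXA1, the insertase that binds the ribosome, lay at -1.24 and -0.86 in wt-starved against -0.27 to 0.08 in the growing RITE strains (-0.97 ± 0.08), and MDM38 at 0.42 and 0.34 against -0.37 to -0.00 (0.57 ± 0.06). YLH47 was lower (-0.73) and MBA1 higher (0.23).

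Of 5 genes for ribosome assembly factors 2 were higher (MTG1 by 0.83 and MRM2 by 0.62) and 3 lower (MRM1, MRH4 and MTG2, with differences between -0.64 and -0.41). Of 15 activators of single mitochondrial messages 8 were higher and 5 lower (median 0.18), led upward by AEP1 (0.86 ± 0.06, SE), PET494 (0.82 ± 0.07) and PET54 (0.80 ± 0.10) and downward by CBP1 (-0.46 ± 0.08), PET122 (-0.40 ± 0.12) and PET309 (-0.35 ± 0.07), of which PET122 turned to 0.29 with the deposited ratios. The 2 transcription genes had RPO41, the mitochondrial RNA polymerase, higher by 0.49. Of 6 regulator genes 4 were higher. HAP4, the limiting activator subunit of the Hap complex, lay at 3.95 and 3.83 in wt-starved against 0.00 to 0.52 in the growing RITE strains, a fold of 12.2 (limma adjusted p = 7.6e-10), and HAP3 was higher by 0.74, PUF3 by 0.21 and HAP5 by 0.18. The call for PUF3 was lost with median centring, and those for ISM1 and MBA1 with print-tip loess.

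The next comparisons asked whether loss of NuB4 subunits or mutation of the H4 lysines altered these genes in starved cells, each mutant (2 arrays) against wt-starved (2 arrays). By limma 0 of the 66 genes were called in hat1-del-starved, hat2-del-starved, hif1-del-starved, hat1-del+hif1-del-starved, hat2-del+hif1-del-starved and hhf2-mut-K5Q-K12Q-starved, and 1 was called in hhf2-mut-K5R-K12R-starved. Over all probes 0.0157%, 0.0157%, 0.329%, 0.0626%, 0.157% and 0.595% were called in the first 6 of these and 3.24% in the last (1.61% higher and 1.63% lower). At an unadjusted p under 0.05 the 7 comparisons in this order held 3, 2, 4, 9, 3, 7 and 16 of the 66 genes. Over all 6388 probes they held 264, 468, 712, 689, 721, 1072 and 1413 at the same threshold. The single deletions had median differences of -0.03 for hat1-del, -0.05 for hat2-del and 0.03 for hif1-del, where the median SE of a gene was 0.11. With 1 array left out these medians ran from -0.15 to 0.09, -0.09 to -0.03 and -0.02 to 0.07, so that those for hat1-del and hif1-del changed sign.

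The largest median was that of hat1-del+hif1-del-starved, in which 54 of the 66 genes lay below wt-starved, beside 3313 of the 6388 probes. Its median difference was -0.12, against -0.01 over all probes. Differences of its genes ran from -0.38 to 0.17. MRP2, at 0.04 and -0.00 in hat1-del+hif1-del-starved against 0.45 and 0.36 in wt-starved, had one of its 2 lowest p-values (difference -0.38 ± 0.11, limma adjusted p = 0.24). These strains lie in different array sets, so that strain and array set cannot be told apart. Set against hat2-del+hif1-del-starved, which shares its array set, hat1-del+hif1-del-starved had 55 of 66 genes lower, beside 3514 of the 6388 probes. The median difference there was -0.11, against -0.02 over all probes. By limma 0 genes were called there, beside 0.0313% of all probes. At an unadjusted p under 0.05 there were 12 of the 66 genes, beside 797 of the 6388 probes.

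MRPL50 (YNR022C), of family bL9m, had the lowest p-value of that comparison. MRPL50 lay at 0.12 and 0.08 in hat1-del+hif1-del-starved, against 0.62 and 0.59 in hat2-del+hif1-del-starved, a difference of -0.51 ± 0.08 (SE) that did not pass after adjustment (limma adjusted p = 0.13). MRPS16 followed with -0.36 (limma adjusted p = 0.27). On the other starved arrays MRPL50 lay at 0.42 to 0.52 in the 2 hhf2 mutants and at 0.13 to 0.46 in the single deletions and wt-starved. MRPL50 also followed dye orientation in growing cells, at 0.37 to 0.55 on the 7 growing BY4742 arrays labelled a and 0.10 to 0.19 on the 7 labelled b, with no overlap. Each of the starved strains compared here had 1 array of each orientation.

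RSM10 (YDR041W), a homologue of the bacterial small subunit protein S10, was the gene called in hhf2-mut-K5R-K12R-starved and had 1 of the 2 lowest p-values in every other mutant set against wt-starved. It lay at 0.71 and 0.89 in hhf2-mut-K5R-K12R-starved and at 0.83 and 0.82 in hhf2-mut-K5Q-K12Q-starved, against 0.49 and 0.45 in wt-starved. The difference was 0.34 ± 0.07 (SE, limma adjusted p = 0.04) in the arginine mutant and 0.36 ± 0.07 (adjusted p = 0.067) in the glutamine mutant. In the 5 deletion strains it lay at 0.29 and 0.25 (hat1-del), 0.16 and 0.19 (hat2-del), 0.25 and 0.20 (hif1-del), 0.25 and 0.13 (hat1-del+hif1-del) and 0.23 and 0.25 (hat2-del+hif1-del), all below both wt-starved arrays. These differences were -0.20, -0.29, -0.24, -0.27 and -0.23, each with an SE of 0.07, and limma adjusted p-values were between 0.22 and 1.00. The 7 comparisons share the wt-starved arrays. Of the other genes among the 2 lowest p-values MRP8 differed by -0.33 in hat1-del, RSM25 by -0.16 in hat2-del, MRPL15 by 0.16 in hif1-del, and MRPL50 by 0.38 in hat2-del+hif1-del and 0.28 in the glutamine mutant. By limma none of these passed, with adjusted p-values of 0.14 to 1.00, and RSM25 turned to 0.0094 with print-tip loess.

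The hhf2 mutants and the double deletions belong to the same array set, and RSM10 was at 0.71 to 0.89 in the mutants and at 0.13 to 0.25 in the double deletions. Wt-starved belongs to the other array set. For the hhf2 mutants and the double deletions against wt-starved, strain and array set cannot be told apart. The call in the arginine mutant was lost with median centring, without dim probes, without the replicate block and without any 1 of the 4 arrays, with adjusted p-values of 0.057 to 0.24. Between the hhf2 mutants, glutamine against arginine, 0 of the 66 genes and 0.00% of all probes were called by limma. At an unadjusted p under 0.05 there was 1 gene, beside 267 of the 6388 probes. Here the median difference was 0.02, and the lowest p was that of RSM19 (YNR037C), at -0.17 and -0.14 in the glutamine mutant against 0.15 and 0.05 in the arginine mutant, followed by MRPL25 (difference 0.20).

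**Figure D3:**
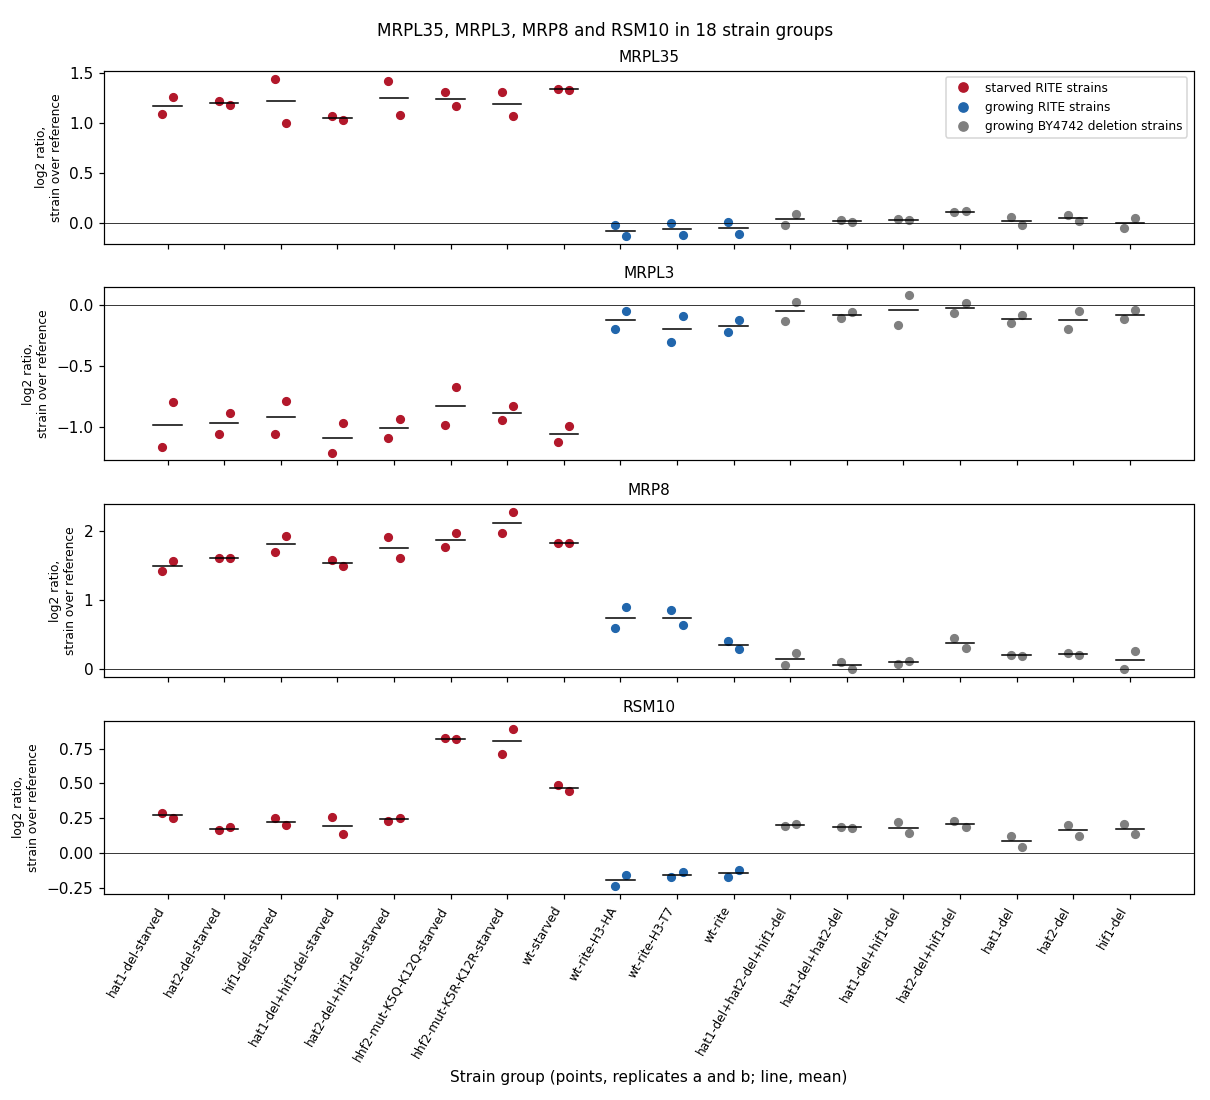
Log2 ratio of strain over common reference of MRPL35, MRPL3, MRP8 and RSM10 in 18 strain groups (points, the 2 arrays; line, their mean). MRPL35 and MRP8 are high and MRPL3 low in all starved groups, and RSM10 lies at 0.71 to 0.89 in the 2 hhf2 mutants, 0.13 to 0.29 in the 5 starved deletion strains and 0.49 and 0.45 in wt-starved.

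In growing BY4742 cells each NuB4 gene was compared on matched backgrounds, with 3 strains that lack the gene (6 arrays) against the 3 that differ from them by having it (6 arrays). Differences were small, between -0.15 and 0.11 without HAT1, -0.04 and 0.07 without HAT2 and -0.05 and 0.09 without HIF1. Without HAT1, 3 of the 66 genes were higher and 2 lower, which is 7.58% beside 4.70% of all probes (2.32% higher and 2.38% lower). RSM18 (YER050C), of the bacterial S18 family, lay between 0.09 and 0.27 (median 0.22) on the arrays without HAT1, against 0.20 to 0.39 (median 0.36) on those with it, a difference of -0.14 ± 0.03 (SE, limma adjusted p = 0.04). The others were MRPL10 (-0.11), MRP20 (0.11), MRPL13 (0.10) and MRP17 (0.09), and in all 5 the arrays of the groups overlapped. With median centring and without the replicate block 0 of the 66 genes were called. Leaving out 1 array gave 0 called genes without replicate a of hat1-del+hat2-del+hif1-del, b of hat1-del+hat2-del, either replicate of hat1-del+hif1-del, a of hat2-del+hif1-del, either replicate of hat2-del or b of hif1-del. It gave 1 without replicate b of hat1-del+hat2-del+hif1-del and 8 without replicate a of hif1-del.

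Without HAT2, 0 genes were called by limma, beside 0.0157% of all probes, and the median difference was 0.02. At an unadjusted p under 0.05 there were 3 genes, beside 294 of the 6388 probes. The lowest p-values were those of RSM23 (0.07) and RSM10 (0.05), with overlapping arrays. Without HIF1, 0 genes were called, beside 0.329% of all probes. At an unadjusted p under 0.05 there were 16 genes, beside 972 of the 6388 probes. Here 60 of the 66 genes lay above 0, beside 3224 of the 6388 probes. The median difference was 0.03, against 0.0004 over all probes, and the median SE of a single gene was 0.03. MRPS8 (YMR158W), of family uS8m, had the lowest p. It lay between -0.10 and -0.02 (median -0.08) without HIF1, against -0.20 to -0.11 (median -0.16) with it, a difference of 0.09 ± 0.02 (limma adjusted p = 0.1), and MRPL23 came next (0.07, limma adjusted p = 0.14). With median centring 9 genes were higher and 2 lower without HIF1, where 14.9% of all probes were called. The effects of the 3 deletions were also compared with each other, and by limma 0 of the 66 genes differed between any pair. Over all probes 0.110% differed for HAT1 against HAT2, 0.0939% for HAT1 against HIF1 and 0.0470% for HAT2 against HIF1. At an unadjusted p under 0.05 there were 14, 10 and 3 genes in this order, beside 1274, 838 and 332 of the 6388 probes.

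**Figure D4:**
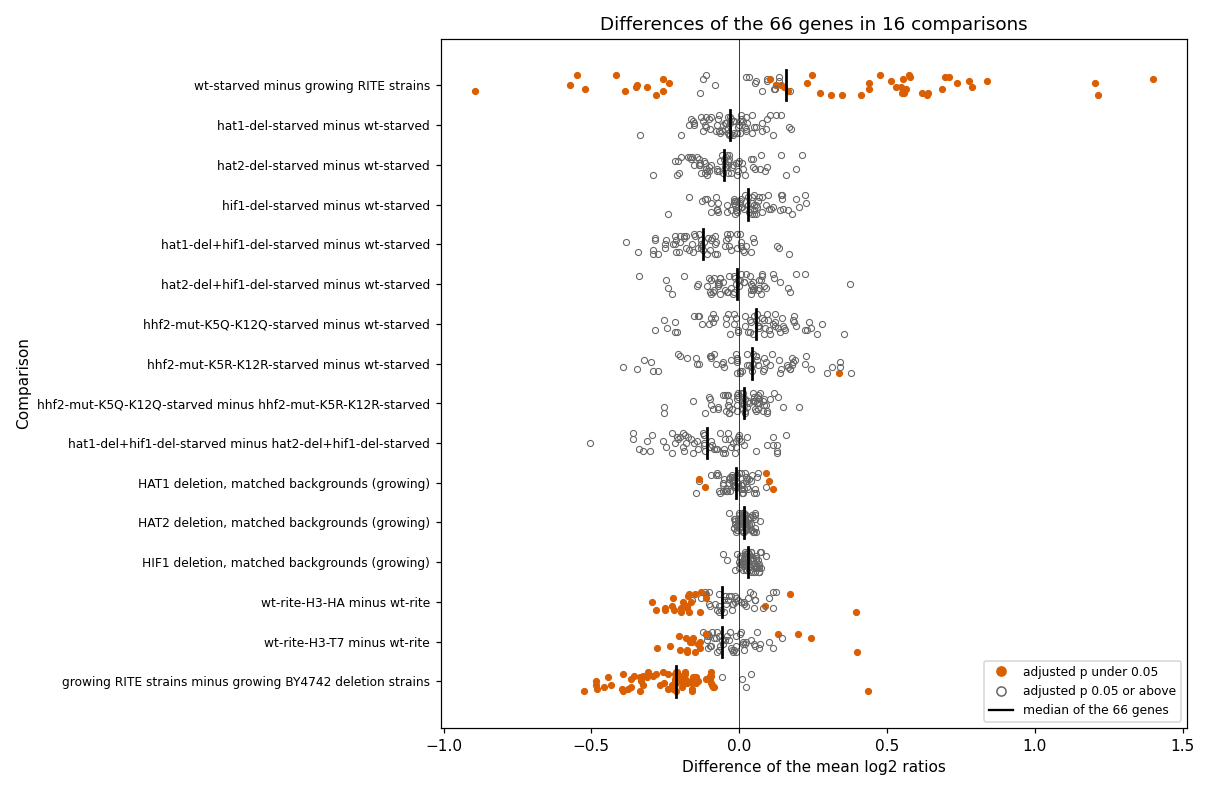
Difference of the mean log2 ratios for the 66 genes in each of 16 comparisons (points; filled, adjusted p under 0.05; black bar, median of the genes). The wt-starved row runs from -0.89 to 1.40. The rows of starved mutants lie between -0.51 and 0.38 and those of NuB4 deletions between -0.15 and 0.11, with 6 filled points in all. In the last row 61 genes are called lower in the growing RITE strains.

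The tag comparisons asked whether a tag on histone H3 altered the genes in growing RITE cells, each tagged strain (2 arrays) against wt-rite (2 arrays). In wt-rite-H3-HA 3 of the 66 genes were higher and 21 lower (25.3% and 19.3% of all probes, 44.7% in all), and in wt-rite-H3-T7 4 were higher and 15 lower (22.7% and 15.4%, 38.1% in all). Both median differences were -0.06. Of the 126 cytoplasmic ribosomal protein genes, 34 were lower in wt-rite-H3-HA, and 28 were lower and 3 higher in wt-rite-H3-T7. The comparisons share the wt-rite arrays, and their p-values rest on a spread shared with the growing BY4742 arrays. With the spread of the 6 growing RITE arrays alone, 2 genes (RSM26 and MRPL51, both lower) were called in wt-rite-H3-HA, beside 15.7% of all probes, and 0 in wt-rite-H3-T7, beside 9.86%. Without the replicate block 8 and 5 genes were called. Leaving out 1 array gave 8 called genes without wt-rite replicate b and 7 without wt-rite-H3-HA replicate b in the HA comparison, and 11, 5, 6 and 11 in the T7 comparison without wt-rite a, wt-rite b, wt-rite-H3-T7 a and wt-rite-H3-T7 b.

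MRPL51 (YPR100W), a mitochondria-specific large subunit protein of family mL43, lay at -0.25 and -0.15 in wt-rite-H3-HA and at -0.15 and -0.09 in wt-rite-H3-T7, against 0.03 and 0.14 in wt-rite. Both tagged strains lay below both wt-rite arrays, with differences of -0.28 ± 0.05 and -0.20 ± 0.05 (SE). MRPL15 (YLR312W-A) (mL57) had differences of -0.25 and -0.28 in the HA and T7 strains, and MRPL38 of -0.22 and -0.18. RSM26 lay at -0.44 and -0.77 in wt-rite-H3-HA, against -0.16 and -0.46 in wt-rite, where the arrays of the groups overlapped and each dye orientation gave a lower value in the tagged strain (difference -0.30 ± 0.05). MRPL20, MRPL33 and MRPL37 were called lower in both tagged strains, with differences of -0.17, -0.25 and -0.20 in the HA strain and -0.20, -0.18 and -0.18 in the T7 strain. RSM26 was called lower in the T7 strain as well (-0.16). MRPL39 was called lower in the HA strain (-0.23) and had -0.10 in the T7 strain, and MRPL25 was called lower in the T7 strain (-0.23) and had -0.07 in the HA strain.

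Few genes were higher with a tag. MRP8 lay at 0.59 and 0.90 in wt-rite-H3-HA and at 0.85 and 0.65 in wt-rite-H3-T7, against 0.41 and 0.29 in wt-rite (both differences 0.40 ± 0.11, SE), and MRPL31, of the mitochondria-specific family mL60, was higher by 0.17 and 0.20. MRP13 was called higher in the HA strain (0.09, against 0.05 in the T7 strain), and MRP10 and MRPL16 in the T7 strain (0.24 and 0.13, against 0.10 and 0.05 in the HA strain). With median centring 0 of the 66 genes were called higher in either strain, and MRP13 turned to -0.011. The 9 genes of starvation and stress averaged 1.04 and 1.73 in wt-rite-H3-HA and 1.54 and 1.37 in wt-rite-H3-T7, against 0.63 and 0.38 in wt-rite, and their part in the result was not tested. Between the HA and T7 effects 0 of the 66 genes differed by limma, where 3.29% of all probes did. At an unadjusted p under 0.05 there were 9 genes, beside 1193 of the 6388 probes.

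The clearest shift of the genes as a group lay between the 2 kinds of growing strains. In the 3 growing RITE strains (6 arrays) 61 of the 66 genes were lower and 1 higher than in the 7 growing BY4742 deletion strains (14 arrays), beside 77.0% of all probes called, 41.0% lower and 36.0% higher. The median difference was -0.22, against -0.02 over all probes, with 62 genes below 0, beside 3421 of the 6388 probes. Of the large subunit genes 35 of 37 were lower (median -0.24) and of the small subunit genes 25 of 27 (median -0.20). The homologues of bacterial proteins had 38 of 40 lower and the mitochondria-specific genes 22 of 24. For 32 of the 66 genes every growing RITE array lay below every growing BY4742 array, beside 8.14% of all probes, and for 0 genes every array lay above, beside 9.99%.

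MRPL37 (YBR268W), a mitochondria-specific large subunit protein of family mL54, fell most. Its lowest, median and highest values were -0.42, -0.39 and -0.10 on the growing RITE arrays, against 0.09, 0.16 and 0.33 on the growing BY4742 arrays. The groups did not overlap, and the difference was -0.52 ± 0.03 (SE), a fold of 0.695 (limma adjusted p = 2.8e-09). The SE and p-values of this comparison measure the spread between arrays of the same strain, not that between strains of a kind. MRPL39 (YML009C), the homologue of bacterial L33, lay between -0.71 and -0.36 (median -0.48) in the growing RITE strains, against -0.10 to 0.16 (median 0.00) in the growing BY4742 strains (difference -0.49 ± 0.03). MRPL51 lay between -0.25 and 0.14 against 0.29 to 0.54 (-0.48 ± 0.02), MRPL15 between -0.31 and 0.14 against 0.27 to 0.46 (-0.46 ± 0.03), and MRPL38 between -0.44 and -0.16 against 0.01 to 0.20 (-0.45 ± 0.02).

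Of the 6 genes with the largest decreases RSM26 was the one whose arrays overlapped, with -0.77 to -0.16 in the growing RITE strains against -0.16 to 0.22 in the growing BY4742 strains (difference -0.49 ± 0.02). MRP8 was the gene that was higher, at 0.29 to 0.90 (median 0.62) in the growing RITE strains against 0.00 to 0.46 (median 0.21), a difference of 0.44 ± 0.06 (SE, limma adjusted p = 1.4e-05). By the median of the genes, the shift was in the untagged strain too. Relative to the reference RNA, the median of the genes was -0.08 in wt-rite, -0.15 in wt-rite-H3-HA and -0.14 in wt-rite-H3-T7, against 0.08 to 0.16 in the 7 growing BY4742 strains.

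**Figure D5:**
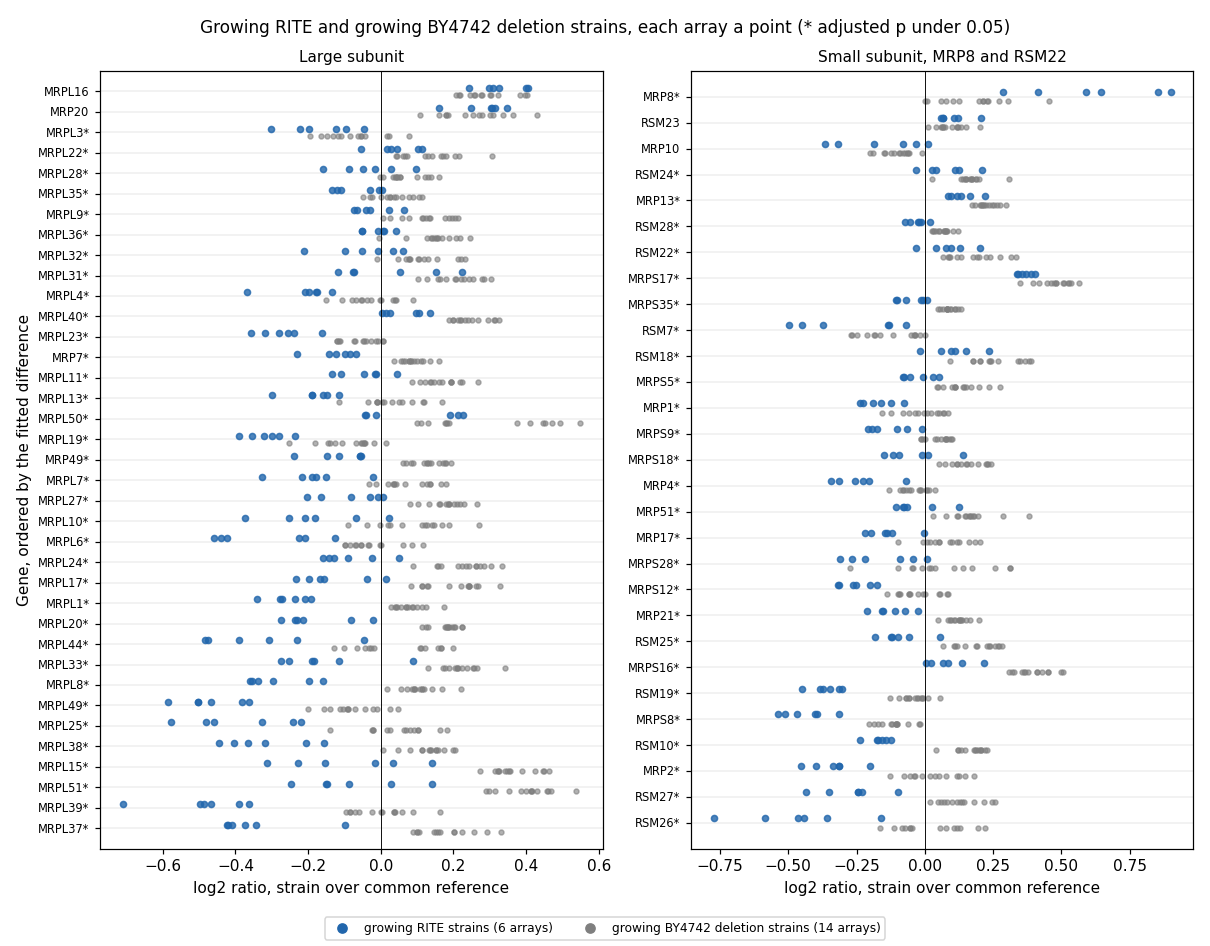
Log2 ratio of strain over common reference for each of the 66 genes, ordered by the fitted difference, with the 6 growing RITE arrays in blue above the 14 growing BY4742 deletion arrays in grey and an asterisk at an adjusted p under 0.05. The blue points lie left of the grey points for nearly all genes, from MRPL37 (-0.52) at the bottom of the large subunit, and right of them for MRP8 (0.44).

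The cytoplasmic ribosomal protein genes were lower in the growing RITE strains as well, with 98 of 126 lower and 5 higher and a median difference of -0.17. The starvation and stress genes averaged 0.38 to 1.73 on the growing RITE arrays, against -0.16 to 0.46 on the growing BY4742 arrays, and their part in the result was not tested. The 2 kinds of strain also differ in mating type, in auxotrophies, in their H3-H4 gene pairs and in array set. Every growing BY4742 strain lacks HAT1, HAT2, HIF1 or several of them, whereas the growing RITE strains have all of them. Only the growing RITE strains carry the Cre construct and the bar1 deletion. None of these differences can be told apart from the others. Both array sets occur among the starved strains, where they go with genotype. The set without ATG33 signal holds wt-starved and the single deletions, and the set with it the double deletions and hhf2 mutants. The 4 strains without signal differed from the 4 with it by a median of -0.00 over the 66 genes. These differences ran from -0.23 to 0.25, with 34 of 66 below 0. The part of array set in the shift was not tested.

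Across all 18 strain means the genes differed in how far they ranged. MRP8 covered 2.07 on the log2 scale, between 0.06 in growing hat1-del+hat2-del and 2.13 in hhf2-mut-K5R-K12R-starved, MRPL35 covered 1.42 and MRPL28 1.34. The narrowest were RSM28, with a range of 0.13 and one of the dimmest probes on the array, MRPS35, a mitochondria-specific small subunit protein, with 0.20, and MRP4, the homologue of bacterial S2, with 0.29. The ranges of MRPL35 and MRPL28 lay between starved and growing strains, with starved strain means of 1.05 to 1.34 for MRPL35 and 1.08 to 1.25 for MRPL28, against growing strain means of -0.08 to 0.11 and -0.09 to 0.11.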

How the data were processed

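RNA of 18 yeast strain groups was hybridised on 36 dual-channel 70-mer arrays against a common reference, 2 arrays per group with swapped dyes. The deposited scanner files hold the intensity of each of 15552 spots with its local background, and the authors had applied neither background correction nor normalization to these. The deposited value table holds log2 ratios that the authors normalized and processed with limma (version 2.12.0 per the submitters' processing notes). They were turned to strain over reference, their column medians lay between -0.01 and 0.04, and their centring is not stated, so they served only as an alternative. A deposited table of the authors' own fold changes and p-values was not used.

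Intensities were background-corrected (normexp, offset 50) and normalized within each array by loess with control spots at weight 0 (limma 3.58.1, R 4.3.3). The 2 spots of a probe were averaged, which left 6388 probes, of which 5326 carry 1 gene symbol. Direction follows the dyes in the labels, and the deleted genes' probes were low under it in the strains that lack them. Each experiment was fitted as group plus replicate letter, with moderated variances and Benjamini-Hochberg adjustment over all probes, and calls were made at an adjusted p under 0.05. The wt-starved comparison used the 16 starved and 6 growing RITE arrays, starved mutants the 16 starved arrays, NuB4 deletions the 14 growing BY4742 arrays, and the tag and strain comparisons the 20 growing arrays. The letter, a or b, is also the dye orientation and was kept as a term for that reason, since the study's methods state no such term for these fits. Strains of the same letter deviated together, with median correlations of 0.59 in the growing BY4742, 0.50 in the starved and 0.25 in the growing RITE groups. The fits were also run on simulated data with independent noise, which lacked this shared deviation of arrays. No result here rests on that run.

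Subunit and family names came from synonyms in the RefSeq gene table. In the wt-starved comparison the 10 lowest and 10 highest genes are named. In each other comparison up to 6 called genes per direction are named by size, or the 2 of lowest p where none was called. The 3 widest and 3 narrowest ranges over strains and up to 3 called genes per direction of each companion list are also named. The genes and the lists were chosen with earlier results of these data known. Replicates are independent cultures, and the number of arrays limits the precision. Alternatives were print-tip loess, uncorrected background, centring on the median, the deposited ratios, leaving out dim probes (below the 25th percentile of intensity), no replicate block, other growing references and leaving out each array. After the data had been seen 3 more were added: arrays of 1 array set only, the 6 growing RITE arrays only, and strain means as samples.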

Additional observations from a re-analysis of the deposited data

How the results depend on the processing

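Counts of called genes depended on the processing mainly where differences were small. For wt-starved against the growing RITE strains 49 genes were called, and 38 to 47 with 1 array left out. For hhf2-mut-K5Q-K12Q-starved 1 gene was called with print-tip loess and 1 with the deposited ratios, in place of 0. For hhf2-mut-K5R-K12R-starved the count of 1 became 3 with print-tip loess and with the deposited ratios, and 0 with median centring, without dim probes, without the replicate block and with any 1 array left out. For HAT1 the count of 5 became 0 with median centring, 1 with the deposited ratios, 0 without the replicate block and 0 to 8 with 1 array left out. For HIF1 the count of 0 became 11 with median centring. For wt-rite-H3-HA the count of 24 became 8 without the replicate block, 2 with only the growing RITE arrays and 7 to 21 with 1 array left out. For wt-rite-H3-T7 the count of 19 became 5 without the block, 0 with only the growing RITE arrays and 5 to 11 with 1 array left out. For the growing RITE strains against growing BY4742 the count of 62 was 62 to 63 with 1 array left out, which does not measure the spread between strains of a kind. The cause of these changes was not tested.

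Of the named genes RSM25 in hat2-del-starved turned to 0.0094 with print-tip loess and MRP13 in wt-rite-H3-HA to -0.011 with median centring. In wt-starved NAM9, a ribosomal protein gene, turned to 0.19 with print-tip loess and 0.28 with the deposited ratios, and PET122 to 0.29 with the deposited ratios. The median difference of the cytoplasmic ribosomal protein genes in wt-starved ran from -1.71 with median centring to -0.47 with the deposited ratios, and that of the 66 genes lay between 0.13 and 0.27. Fewer arrays were left in each fit that omitted some, and dim signal limits RSM28, MRP4, MRP21 and MRPL27, which lay below the 25th percentile of intensity.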
